A study of Mus musculus with 42 samples.

Results

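The genes described here are the interleukins and the interleukin receptors of the mouse: all protein-coding genes whose symbol begins with Il and a digit. There were 84 such genes among the 21697 protein-coding genes of the deposited files, and they carry 82 symbols because Il11ra2 stands for several near-identical gene copies. The 84 members were measured in whole liver and in ribosome-bound RNA of the same livers. Interleukins are secreted proteins by which immune cells signal to each other and to their tissue. Most bind receptors built from a chain that recognises the ligand and a chain shared by several ligands, such as the common gamma chain Il2rg or the gp130 chain Il6st. In the liver, resident macrophages (Kupffer cells) are a known source of IL-1 family cytokines and of IL-6, and hepatocytes answer IL-6 and IL-1 by making acute phase proteins.

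The livers came from 3 mice that were all Gfi1Cre/+;Rpl22HA/HA, so no animal lacked the driver or the tag. In this RiboTag design, cells with a history of Gfi1-Cre expression make an HA-tagged copy of the ribosomal protein Rpl22, and ribosomes pulled down with an HA antibody (IP) carry the RNA of those cells. The Cre is a knock-in at Gfi1, a transcription factor of blood cells. The study's own authors stained newborn livers of another cross, Gfi1-Cre with a TdTomato reporter, and placed the recombined cells as probably Kupffer or endothelial. The 3 sequenced mice were 30 days old by one label and by the methods of the study, although another label calls them newborn pups. RNA of the IP and of the liver before IP (input) went into 7 library protocols with 3 libraries of each fraction: TruSeq70 (70 ng) and TruSeq4 (4 ng) of the TruSeq kit, SMARTseq4 (4 ng) and SMARTseq0.25 (0.25 ng) of the SMART-Seq v4 kit, and the NuGEN, NEB and SMARTer kits. The 42 libraries therefore come from the same 3 animals, so the protocols repeat the preparation and not the animals, and the SMART-Seq v4 libraries were sequenced at another centre, which cannot be told apart from the kit. Fewer cells of a type and less RNA per cell cannot be told apart in these data.

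In replicate 3 of NEB, NuGEN, SMARTer and TruSeq4, the study lists for the library labelled input the number of detected genes of the IP, and the reverse. For these 8 libraries the fractions were exchanged in all main results below. With the labels as deposited, 0 members were called in each of the 4 protocols (edgeR, or limma for SMARTer), with 0 members in NEB, SMARTer and TruSeq4 and 1 in NuGEN at an unadjusted p under 0.05. Without replicate 3, calls numbered 1 in NEB, 21 in NuGEN, 4 in SMARTer and 31 in TruSeq4. TruSeq70, SMARTseq4 and SMARTseq0.25 rest on the labels as they are.

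Exon counts summed to between 3223153 and 45466334 per library in the 6 protocols tested on counts, and to 464199 to 762562 in SMARTer. In SMARTer, 76.8% to 93.8% of the reads were assigned to no gene. Its exon counts correlate with genes on the opposite strand, and for that reason SMARTer was tested on the deposited RPKM. Values below are normalised CPM (exon counts relative to library size, scaled by the TMM method over 36 libraries) unless another unit is named. The scaling matters: with CPM of the library total, the median gene was 0.41 (TruSeq70) to 1.60 (NuGEN) higher in the IP on the log2 scale, and after TMM all medians lay between -0.06 and 0.09. Among member calls on counts, 142 kept their sign with library totals and 4 did not: Il1rap, Il17rb and Il6st in NuGEN and Il15ra in SMARTseq4.

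The start regions of 4 members are shown because these genes stood at the ends of the comparison. Il2rg and Il1b were picked from the 8 members higher in the IP in at least 6 protocols. Il1rap and Il17rb were the 2 members lower in at least 5. Each sequence gives the 250 bases before the RefSeq transcript start (GRCm38.p6), 5′ to 3′ on the strand of the gene, with letters of a searched motif in capitals. The windows are chrX:101268256-101268505 (minus strand) for Il2rg, chr2:129371140-129371389 (minus) for Il1b, chr16:26581455-26581704 (plus) for Il1rap and chr14:30008897-30009146 (minus) for Il17rb.
Il2rg: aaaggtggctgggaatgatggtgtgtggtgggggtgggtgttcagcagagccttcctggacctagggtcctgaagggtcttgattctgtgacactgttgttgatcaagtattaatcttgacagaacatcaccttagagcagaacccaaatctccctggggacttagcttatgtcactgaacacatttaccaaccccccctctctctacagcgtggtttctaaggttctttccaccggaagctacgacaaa
Il1b: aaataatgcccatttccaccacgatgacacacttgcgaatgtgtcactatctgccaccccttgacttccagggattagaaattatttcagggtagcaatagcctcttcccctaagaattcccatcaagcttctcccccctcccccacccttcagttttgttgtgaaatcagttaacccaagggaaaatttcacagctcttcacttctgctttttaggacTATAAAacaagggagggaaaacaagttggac
Il1rap: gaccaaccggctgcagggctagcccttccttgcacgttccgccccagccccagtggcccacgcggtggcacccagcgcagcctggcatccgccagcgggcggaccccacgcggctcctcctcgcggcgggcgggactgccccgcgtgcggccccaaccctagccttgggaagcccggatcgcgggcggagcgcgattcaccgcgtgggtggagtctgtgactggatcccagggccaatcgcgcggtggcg
Il17rb: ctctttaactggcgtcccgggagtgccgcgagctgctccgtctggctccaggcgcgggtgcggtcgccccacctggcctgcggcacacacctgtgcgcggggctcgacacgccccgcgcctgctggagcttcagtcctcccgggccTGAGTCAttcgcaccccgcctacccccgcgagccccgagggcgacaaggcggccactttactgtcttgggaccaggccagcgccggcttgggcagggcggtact
The windows of Il1rap and Il17rb were 74.4% and 72.0% G or C, and those of Il2rg and Il1b 49.2% and 44.4%. No G or C share over all windows was computed, and other higher members such as Il18bp are not shown. So no link between G or C share and direction is read from these 4 windows. Motifs were searched on both strands. The capitals in Il1b mark a TATA box (TATAAA, present in 12.4% of all 32851 windows of the same length), 31 to 26 bases before the start. Those in Il17rb mark an AP-1 motif (TGANTCA, 6.75% of windows). Letters of a PU.1 core (GAGGAA, 23.3%), a C/EBP motif (TTNNGCAA, 9.56%), an HNF4 motif (AAAGTCCA, 1.01%), and the longer IRF (2.98%) and HNF1 (0.371%) motifs were not in these 4 windows. RefSeq start regions were at hand for 65 of the 82 symbols, and Il10ra, Il10rb and Il17ra were among those without one.

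Of the 84 members, 14 had no exon count in any of the 42 libraries. These were mainly cytokines of activated lymphocytes and epithelia, such as Il17a, Il17f, Il22, Il3, Il25 and Il31. Copies of Il11ra2 were also among them, with a mean deposited RPKM of 1.61 in TruSeq70 input and 1.06 in IP. Per the study, reads that mapped to several features were removed from the counts, so 0 counts of near-identical copies are not read as absence. A further 20 had counts but passed the filter on low values in no protocol, among them Il6, whose highest library held 68 counts. The remaining 50 were tested in at least 1 protocol, 29 in at least 5 and 5 in all 7. Of the 50, 31 were higher in the IP in at least 1 protocol, 9 were lower in at least 1, 10 were called in none, and 0 were called in both directions. By the same rule of at least 1 call, 62% of tested members were higher and 18% lower, against 32.5% and 30.8% of all 18238 genes tested, and the counts of families over the 7 protocols below stand against these shares. Members with inputs near 0 counts, such as Il12b, Il27, Il10, Il1r2 and Il1rl1, could pass the filter only through the IP. For them, entering the test nearly fixed a higher call, so they add no independent support to the 62% or to the shares per protocol below. The same filter was used for all genes.

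In TruSeq70, 36 members were tested, of which 22 (61.1%) were higher in the IP and 4 (11.1%) were lower. Among all 14707 genes tested there, 18.1% were higher and 16.7% lower. The higher members include some with inputs near 0 counts, such as Il1r2, Il12rb1, Il7r, Il21r, Il18r1, Il18rap and Il1b. These could pass the filter only through the IP, which nearly fixed their direction, so the shares are descriptive. The share of higher members exceeded that of all genes in the other protocols too. In TruSeq4, 29 of 44 were higher (65.9%, background 25.9%) and 6 lower (background 24.2%). In SMARTseq4, 27 of 42 were higher (64.3%, background 30.4%) and 8 lower (background 28.7%), and in SMARTseq0.25, 16 of 32 were higher (50%, background 19.8%) and 3 lower (background 17.1%). In NuGEN, 19 of 31 were higher (61.3%, background 24%) and 4 lower (background 20.9%). NEB gave 7 higher of 29 (24.1%, background 5.82%) and 1 lower (background 5.34%), and SMARTer gave 4 higher of 7 (57.1%, background 13.2%) and 0 lower of 7 (background 6.99%). The 0 of SMARTer is a count of the limma test on RPKM. The median log2 change of tested members was 1.79 in TruSeq70, 2.22 in TruSeq4, 1.77 in SMARTseq4, 1.78 in SMARTseq0.25, 1.67 in NuGEN, 2.24 in NEB and 1.07 in SMARTer, beside all-gene medians between -0.06 and 0.06.

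**Figure D1:**
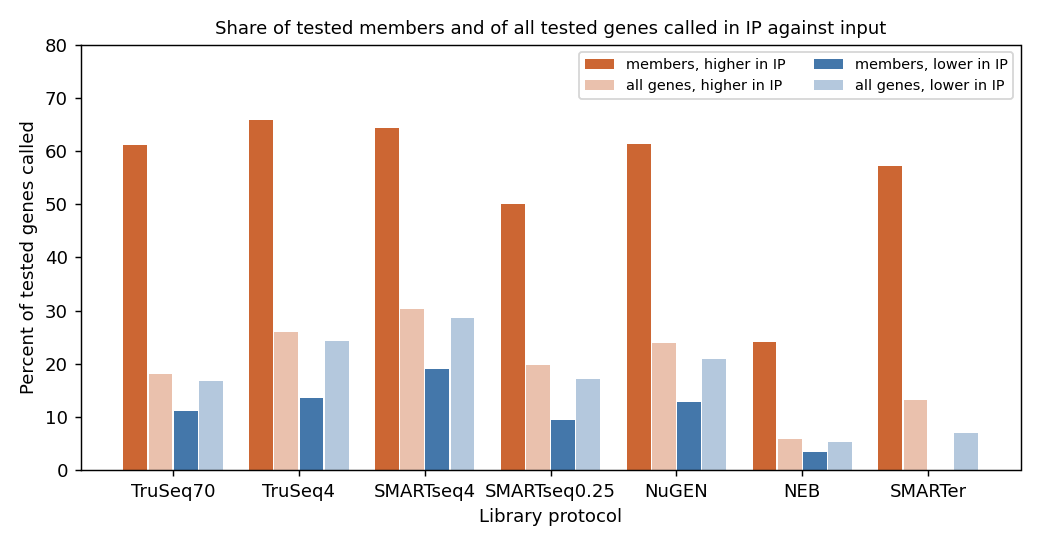
Percent of tested genes called in IP against input (y axis) in each of 7 protocols (x axis), with dark bars for members, pale bars for all tested genes, orange for higher and blue for lower in the IP. The bar of higher members is above that of all genes in each protocol, from 24.1% against 5.82% in NEB to 65.9% against 25.9% in TruSeq4, and the bar of lower members is below that of all genes. The bars include genes that passed the filter only through the IP.

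Many calls were lost when 1 mouse was left out. Such fits hold fewer libraries and have less power, so a lost call does not by itself show that 1 mouse carried the change. The 26 calls in TruSeq70 became 16 without replicate 2 and 14 without replicate 3, and 13 of the 26 held in each fit without 1 replicate: Il18bp, Il10ra, Il10rb, Il2rg, Il2rb, Il7r, Il21r, Il16, Il1rn, Il18 and Il17ra (higher), and Il1rap and Il17rc (lower). In SMARTseq4, 29 of 35 calls held in each such fit, in TruSeq4 28 of 35, in NuGEN 18 of 23 and in SMARTseq0.25 15 of 19. In NEB 1 of 8 held (Il18bp), with 6, 4 and 1 calls without replicates 1, 2 and 3, and SMARTer gave 2 calls without replicate 1 in place of 4.

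All members together took 663 to 677 CPM in the TruSeq70 inputs and 1440.2 to 1522 CPM in its IPs, a ratio of 2.20. The ratio of the group means was 2.26 in NEB, 2.02 in NuGEN, 1.82 in SMARTseq0.25, 1.78 in SMARTseq4 and 2.02 in TruSeq4, and the 3 IP values lay above the 3 input values in all 6 protocols. These ratios depend on the TMM scaling, most of all in NuGEN. With CPM of the library total, the NuGEN inputs held 349 to 381 and its IPs 1790 to 2377. For TruSeq70 those values were 581 to 619 and 1545 to 1908. With fractions as labelled and TMM scaling, the groups overlapped in NEB, NuGEN and TruSeq4. In SMARTer the summed RPKM overlapped between groups, from 87.0 to 439.5 in input and 113 to 597 in IP.

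**Figure D2:**
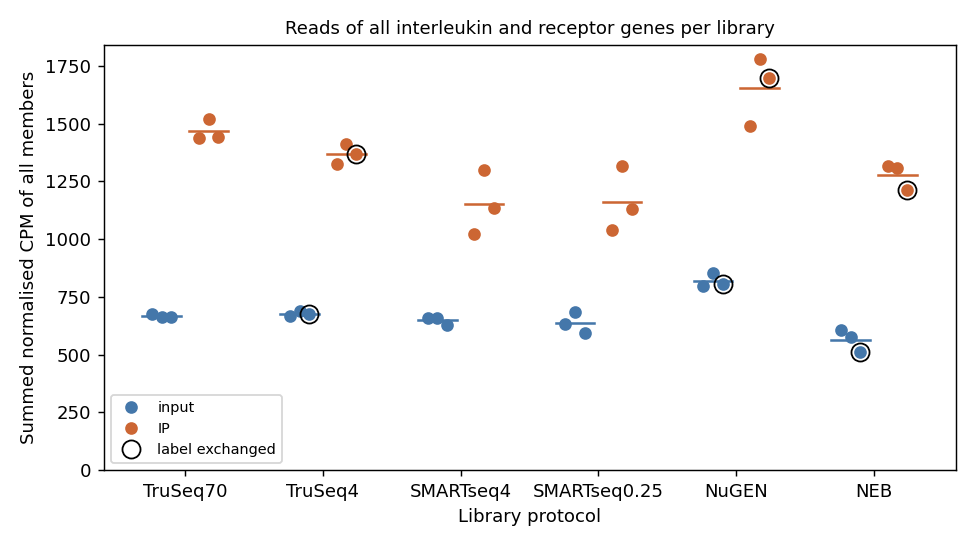
Summed normalised CPM of all 84 members (y axis) in each of 36 libraries of 6 protocols (x axis), blue for input and orange for IP, with a line at the mean of 3 and a ring around libraries whose labelled fraction was exchanged. IP values lie above input values in each protocol, for example 1440.2 to 1522 against 663 to 677 in TruSeq70.

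The members that made up these sums differed between the fractions. Il1rap, Il6st and Il6ra made up 54.1% of all member counts in the TruSeq70 input, and Il18bp, Il6ra and Il10ra made up 39.4% in the IP. The order differed by kit. Il6st led the inputs of NEB (22.4%) and NuGEN (30.1%), and Il1rap those of SMARTseq0.25 (34.5%) and SMARTseq4 (35.4%). In the IP, Il6ra led in NEB (22.9%) and NuGEN (22.2%). Per length of exon, the highest levels in the TruSeq70 input were those of Il17rc with 21.4 ± 1.42 normalised CPM per kilobase (SD, n = 3), Il1rap with 13.4 ± 0.876 and Il6st with 12.4 ± 1.21. The last 2 did not differ beyond their spread, and neither did Il6ra (8.41 ± 2.13), Il18 (7.32 ± 3.08), Il13ra1 (7.12 ± 0.683), Il4ra (6.81 ± 1.77) and Il11ra1 (6.58 ± 1.09) among themselves. In the IP, Il18bp led with 98.7 ± 34.2 normalised CPM per kilobase, ahead of Il10ra with 37.8 ± 8.12 and Il18 with 31.1 ± 5.13. Il10rb (23.5 ± 2.97), Il2rg (22.1 ± 1.84) and Il1b (19.3 ± 6.69) followed and did not differ from each other beyond their spread. Il17rc, first in the input, had 7.77 ± 1.84 normalised CPM per kilobase in the IP.

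**Figure D3:**
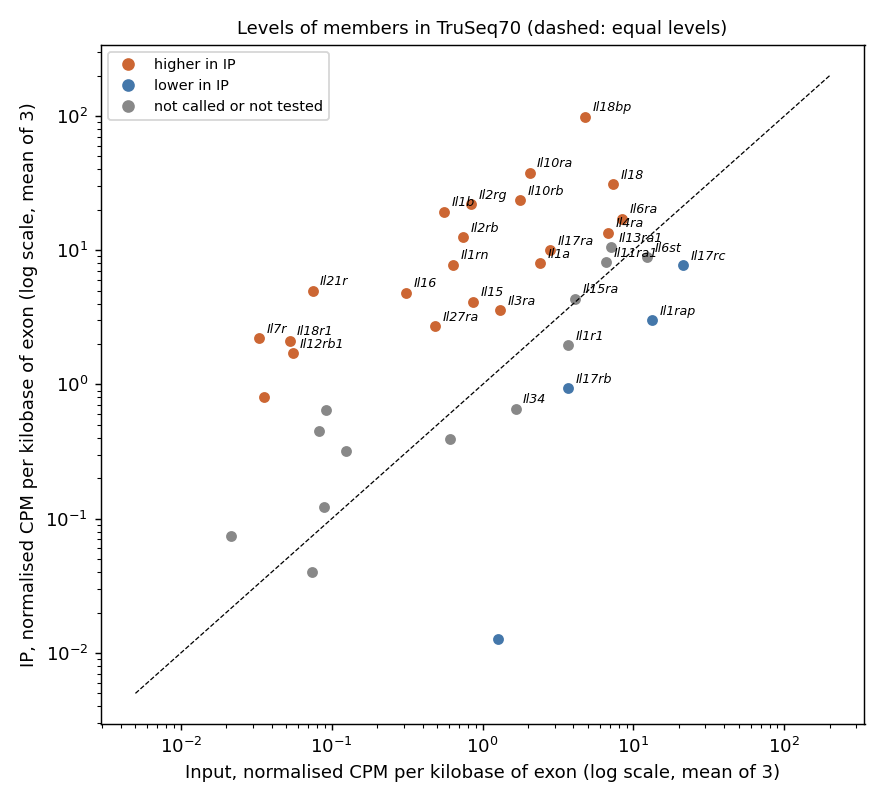
Mean normalised CPM per kilobase of exon in TruSeq70 input (x axis, log scale) and IP (y axis, log scale) for the 38 members above 0 in both, with orange for members higher in the IP, blue for lower and grey for the others, and a dashed line at equal levels. Il18bp stands highest on the IP axis at 98.7 and Il17rc farthest right on the input axis at 21.4.

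The IL-1 family holds ligands, their antagonists and a group of related receptors. Of its 11 ligands and antagonists, 7 were tested in at least 1 protocol, 5 were higher in the IP and 1 was lower. Il18bp, a secreted protein that binds IL-18 and keeps it from its receptor, was higher in the IP in all 7 protocols. Its TruSeq70 inputs held 15.8, 9.85 and 17.6 CPM and its IPs 189, 394 and 314 CPM. Over the 18 libraries of each fraction in the 6 count protocols, input ran from 3.56 to 33.7 CPM (median 16.8) and IP from 139 to 394 (median 252), so no IP library fell among the inputs. The log2 change in TruSeq70 was 4.37 ± 0.35 (SE, edgeR, adjusted p = 2.96e-05), or 20.7-fold, and the 6 count protocols spanned 3.47 to 4.46. In SMARTer, RPKM was 0.920, 0.196 and 1.05 in input against 7.15, 10.6 and 22.7 in IP. Il18, the cytokine itself, had 6.14, 5.32 and 11.2 CPM in the TruSeq70 inputs and 34.0, 36.1 and 26.1 in the IPs. The groups did not overlap there, with a 4.26-fold difference (log2 2.09 ± 0.35, edgeR, adjusted p = 0.00158). Il18 was higher in NuGEN, SMARTseq4, TruSeq4 and TruSeq70, and the call fell away without replicate 2 in NuGEN (log2 1.08) and SMARTseq4 (log2 0.77) and without replicate 3 in NuGEN (log2 0.93).

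Il1b, the inducible IL-1 cytokine of myeloid cells, was near 0 in the inputs, at 2.71, 0.424 and 0.0356 CPM in TruSeq70. The IPs of the same mice held 47.7, 40.1 and 22.8 CPM. The log2 change was 5.16 ± 1.01 (edgeR, adjusted p = 0.00372) and remained 4.70 without replicate 2, where it was no longer called. Il1b was higher in all 6 count protocols, with inputs of 0 to 2.71 CPM (median 1.15) and IPs of 10.7 to 59.2 (median 30.1). Il1a, its cell-associated relative, had 7.25, 3.33 and 3.64 CPM in the TruSeq70 inputs and 18.9, 18.6 and 9.89 in the IPs, a smaller difference of 3.34-fold (log2 1.74 ± 0.46, edgeR, adjusted p = 0.0165). That call fell away without replicate 2 (log2 1.404) or replicate 3 (log2 1.83), and 4 further protocols called Il1a higher, of which SMARTseq0.25 did not without replicate 2 or 3 (log2 1.31 to 1.77) or with the mouse as a block (log2 1.77, adjusted p = 0.0685). Il1rn, the antagonist that occupies the IL-1 receptor without signalling, had 5.34, 1.96 and 3.28 CPM in the TruSeq70 inputs and 65.7, 34.7 and 28.7 in the IPs. The difference was 12.3-fold (log2 3.62 ± 0.47, edgeR, adjusted p = 0.000397), and Il1rn was higher in 5 protocols. The 5 that were higher were thus Il18, Il1b, Il1a and the inhibitors Il1rn and Il18bp. Il1f9 was tested in SMARTseq4 alone and not called (log2 2.54). Il33, an alarmin of the nucleus of structural cells, was lower in NuGEN (log2 -1.86) and SMARTseq4 (log2 -1.74), whereas TruSeq70 gave 2.71, 1.47 and 1.10 CPM in input and 1.27, 0.402 and 1.75 in IP with overlap. Without replicate 2 the Il33 call was lost in both protocols (log2 -1.45 in SMARTseq4), and in NuGEN it was lost without replicate 1 too (log2 -1.43) and with the mouse as a block (log2 -1.61, adjusted p = 0.0774).

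The receptors of this family did not move as one. Of 9, 7 were tested in at least 1 protocol, 5 were higher and 1, Il1rap, was lower. Il1rap, the accessory chain shared by the receptors for IL-1, IL-33 and IL-36, had 157, 158 and 140.2 CPM in the TruSeq70 inputs and 43.6, 26.1 and 32.4 in the IPs. Its input range over 18 libraries, 97.9 to 254 CPM, lay wholly above its IP range of 15.0 to 59.4. The input level was 4.45-fold that of the IP in TruSeq70 (log2 -2.15 ± 0.23, edgeR, adjusted p = 0.000127), and Il1rap was lower in all 6 count protocols (log2 -2.78 to -1.39), though in NuGEN the sign turned with library totals (log2 0.18). Il1r1, the signalling receptor for IL-1, was tested in 6 protocols and called in 0 by edgeR, with log2 changes of -1.27 to -0.32. Its TruSeq70 values were 21.4, 17.7 and 31.5 CPM in input and 3.14, 12.8 and 21.5 in IP, and the groups overlapped. Il1r2, a decoy receptor that binds IL-1 without signalling, had 0 counts in all 3 TruSeq70 inputs and 2.57, 0.295 and 3.34 CPM in the IPs. It was at least 57.0-fold higher in the IP (against 3 counts over the input group), and was called in SMARTseq0.25, SMARTseq4, TruSeq4 and TruSeq70, the last not without replicate 1 or 3, nor with the mouse as a block (log2 8.79, adjusted p = 0.0685). The IL-18 receptor chains Il18r1 and Il18rap were higher in 4 and 5 protocols. Il18r1 had 0, 0.652 and 0.107 CPM in the TruSeq70 inputs and 8.12, 5.54 and 17.03 in the IPs, and Il18rap had 0.254, 0 and 0.463 against 2.41, 1.66 and 12.1. Mouse 3 was highest in the IP for both chains, and without replicate 3 neither was called (log2 4.35 and 3.98). Il18rap was also not called without replicate 1 or 2 in TruSeq70, or without replicate 2 in TruSeq4 (log2 2.96). Il1rl2, the IL-36 receptor, was higher in SMARTseq0.25, SMARTseq4 (not without replicate 3) and TruSeq4. In TruSeq70 it had 1.02, 1.04 and 0.463 CPM in input and 0.802, 1.29 and 4.41 in IP, with overlap. Il1rl1, the IL-33 receptor, was at least 47.3-fold higher in TruSeq4, the single protocol that tested it. Il1r2, Il1r1, Il1rl2, Il1rl1, Il18r1 and Il18rap lie side by side on chromosome 1, from 40074079 (Il1r2) to 40551705 (Il18rap) in GRCm38. Within this stretch Il1r1 was not called while its neighbours Il1r2 and Il1rl2 were higher in several protocols. Whether Il1r1 and its neighbours differ in their change was not tested.

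The common gamma chain family serves lymphocytes in the main. Of its 10 receptor chains (with those of IL-13), 9 were tested, 7 were higher and 1 was lower. Il2rg, the shared chain of the receptors for IL-2, IL-4, IL-7, IL-9, IL-15 and IL-21, was higher in all 7 protocols, in NEB not without any 1 replicate or with the mouse as a block (log2 9.89, adjusted p = 0.0704). It had 1.61, 1.92 and 2.49 CPM in the TruSeq70 inputs and 48.1, 56.9 and 53.2 in the IPs. The 26.2-fold difference (log2 4.71 ± 0.29, edgeR, adjusted p = 8.23e-06) was far above the spread between mice. Over 18 libraries each, inputs reached 4.71 CPM at most and IPs were at least 16.9. A gene model on the same strand, Gm20489, shares 728 exon bases with Il2rg. Il2rb, the chain for IL-2 and IL-15, had 1.74, 6.10 and 1.75 CPM in the TruSeq70 inputs and 33.4, 63.9 and 63.7 in the IPs (log2 4.06 ± 0.56, edgeR, adjusted p = 0.000516). It was higher in 5 protocols, and its 18 inputs stayed at or below 6.10 CPM while its 18 IPs lay between 22.9 and 89.0. Il21r, the receptor for IL-21, went from 0.678, 0.0326 and 0.0356 CPM to 15.4, 20.4 and 13.99 (log2 6.11 ± 1.003, edgeR, adjusted p = 0.00144) and was higher in 6 protocols, of which SMARTseq0.25 gave no call without replicate 2 or 3 (log2 3.63 to 4.89) and NEB none without any 1 replicate (log2 8.89 to 12.33). Il7r, the receptor for IL-7, had 0, 0.391 and 0.0713 CPM in the TruSeq70 inputs and 10.8, 12.6 and 7.48 in the IPs (log2 5.97 ± 1.07, edgeR, adjusted p = 0.00230), and was higher in 5 protocols. In SMARTseq0.25 the Il7r call was lost without replicate 1 (log2 4.57) and without replicate 3 (log2 3.83).

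The other chains of this family follow. Il4ra, the receptor chain for IL-4 and IL-13, had 52.4, 38.7 and 31.5 CPM in the TruSeq70 inputs and 72.7, 94.0 and 77.2 in the IPs, a 1.99-fold difference (log2 0.99 ± 0.24, edgeR, adjusted p = 0.0102). It was also called in NuGEN and TruSeq4, and in TruSeq70 not without replicate 2 or 3 (log2 0.84 to 0.87). Il13ra1, the other chain for IL-13, was called in TruSeq4 alone of the 6 protocols that tested it, with 28.2, 27.6 and 23.5 CPM against 43.3, 39.9 and 34.3 in TruSeq70 (log2 0.57 ± 0.22). The TruSeq4 call was lost without replicate 2 or 3 (log2 0.43 to 0.495). Il15ra, which presents IL-15 to neighbouring cells, was lower in SMARTseq4 (log2 -0.49), a call that did not hold without any 1 replicate and whose sign turned with library totals (log2 0.07). In TruSeq70 it had 17.8, 14.4 and 22.5 CPM in input and 18.97, 16.5 and 22.6 in IP, with overlap. Il2ra, the high-affinity chain for IL-2, was called higher in SMARTseq4 and TruSeq4. Of 7 ligands of the family, 3 were tested and 2 were higher. Il15 was higher in SMARTseq4, TruSeq4 and TruSeq70, where it had 2.33, 2.87 and 0.677 CPM against 14.4, 7.66 and 5.95 (log2 2.25 ± 0.68, edgeR, adjusted p = 0.0298), and in TruSeq70 it was not called once any replicate was left out (log2 2.001 to 2.76). Il15 was not called in NuGEN (log2 1.09), in SMARTseq0.25 (log2 1.44) or in NEB, where its sign was opposite (log2 -1.40). Il4 was called in SMARTseq4 (log2 3.03). Of the common beta chain family, Il3ra alone was tested, and it was higher in SMARTseq4, TruSeq4 and TruSeq70 (log2 1.46 ± 0.48, from 5.17, 2.12 and 4.31 CPM to 9.02, 10.98 and 11.8). In TruSeq70 this call (edgeR, adjusted p = 0.0414) was lost without replicate 2 or 3 (log2 1.13 to 1.46) and with the mouse as a block (log2 1.54, adjusted p = 0.0560), and in SMARTseq4 without replicate 1 or 2.

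The IL-6 and IL-12 group had 11 receptor chains, of which 7 were tested, 4 were higher and 2 were lower. Il6ra, the chain that binds IL-6, and Il6st, the gp130 chain that signals for it, went apart. Il6ra had 51.8, 79.5 and 86.7 CPM in the TruSeq70 inputs and 136, 140.1 and 169 in the IPs, a 2.04-fold difference without overlap (log2 1.03 ± 0.23, edgeR, adjusted p = 0.00780). It was higher in all 6 count protocols (log2 1.03 to 1.94), although in TruSeq70 the call was lost without replicate 2 (log2 1.14) or 3 (log2 1.07). Il6st had 143, 146 and 122 CPM in the TruSeq70 inputs and 111, 87.7 and 96.6 in the IPs. The groups did not overlap, but the change of -0.48 ± 0.18 on the log2 scale was not called there (edgeR, adjusted p = 0.0756). Il6st was called lower in NuGEN and TruSeq4, in neither without replicate 2 (log2 -0.53 and -0.65), and in NuGEN its sign turned with library totals (log2 0.96). On the deposited RPKM of NuGEN, limma called Il6st higher in the IP (log2 0.43, adjusted p = 0.0232), so its direction there depended on the values used. A test of the difference between both genes was not made. Il27ra, the receptor for IL-27, had 2.80, 0.391 and 1.89 CPM in the TruSeq70 inputs and 4.68, 13.5 and 10.4 in the IPs (log2 2.50 ± 0.78, edgeR, adjusted p = 0.0332). It was higher in 4 protocols, and in TruSeq70 and NuGEN not without replicate 2 or 3 (log2 1.69 and 2.52 in TruSeq70). Il12rb1, shared by the receptors for IL-12 and IL-23, was higher in SMARTseq4, TruSeq4 and TruSeq70, where it had 0.678, 0 and 0 CPM against 4.44, 7.52 and 9.07 and was not called without replicate 2 or 3 (log2 4.15 to 4.32). Il12rb2 was called higher in NuGEN (log2 3.39), but 1519 of its exon bases are shared with Serbp1 on the opposite strand. Il11ra1, the receptor for IL-11, was lower in SMARTseq4 (log2 -0.84) and had 29.999, 24.3 and 33.9 CPM against 59.2, 30.4 and 19.3 in TruSeq70, with overlap. Among 7 ligands, Il12b and Il27 passed the filter in SMARTseq4 and TruSeq4 and were higher in both. Their inputs were near 0 counts, so they passed only through the IP, which nearly fixed the direction of these calls. In TruSeq4 the Il12b call was lost without replicate 2 (log2 3.91). Pooled over the 3 libraries of SMARTseq4, Il12b rested on 3 input and 92 IP counts, a ratio of 32.9 with an exact 95% counting interval of 10.9 to 163. Il6 itself passed the filter in 0 of 7 protocols.

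In the IL-10 family both chains of the IL-10 receptor were higher. Il10ra, which binds IL-10 and is typical of blood cells, had 7.25, 9.88 and 4.35 CPM in the TruSeq70 inputs and 165, 113 and 119.5 in the IPs. The 18.5-fold difference (log2 4.21 ± 0.34, edgeR, adjusted p = 2.98e-05) was called in 6 of 7 protocols, NEB being the exception (log2 4.91). Il10rb, which also serves IL-22 and the type III interferons, had 9.11, 4.21 and 6.91 CPM in input and 96.8, 95.01 and 76.4 in IP (log2 3.73 ± 0.31, edgeR, adjusted p = 3.59e-05). It was higher in all 7 protocols, in SMARTer not without replicate 1, as for Il10ra, and a gene model on the same strand, Gm21970, shares 569 of its exon bases. Il22ra1, the IL-22 receptor of epithelial cells, ran the other way. It had 1.44, 4.27 and 3.99 CPM in the TruSeq70 inputs and 0, 0 and 0.0975 in the IPs (log2 -6.41 ± 1.70, edgeR, adjusted p = 0.0172), and was lower in SMARTseq4, TruSeq4 and TruSeq70. The TruSeq70 call was lost without replicate 2 or 3, though the log2 change there was -9.44 to -5.63. In SMARTseq4 it was lost without replicate 1 or 3 and with the mouse as a block (log2 -2.42, adjusted p = 0.0559), and in TruSeq4 without replicate 2 or 3. Thus Il10rb and Il22ra1, which pair in the IL-22 receptor, were called in opposite directions in TruSeq70. Il10 passed the filter in SMARTseq4 and TruSeq4 and was higher in both (log2 3.34 and 3.82), in TruSeq4 not without replicate 2 or 3 (log2 3.11 to 3.38). With inputs near 0 counts, Il10 too passed only through the IP.

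The IL-17 receptors split as well. Il17ra, the chain common to this family, had 25.1, 25.3 and 22.5 CPM in the TruSeq70 inputs and 107, 80.3 and 73.4 in the IPs. The 3.58-fold difference (log2 1.84 ± 0.22, edgeR, adjusted p = 0.000215) was matched by a higher call in all 6 count protocols. Il17rc, its partner for IL-17A and IL-17F, had 53.7, 56.6 and 61.2 CPM in input and 26.3, 18.9 and 17.1 in IP (log2 -1.46 ± 0.24, edgeR, adjusted p = 0.00129). It was lower in SMARTseq0.25, SMARTseq4, TruSeq4 and TruSeq70. Il17rb, the partner for IL-25, had 14.4, 10.7 and 16.0 CPM in input and 3.88, 3.19 and 3.31 in IP, an input level 3.94-fold that of the IP (log2 -1.98 ± 0.39, edgeR, adjusted p = 0.00390). It was lower in 5 protocols (log2 -2.28 to -1.53), in NuGEN with the opposite sign for library totals (log2 0.04), and the TruSeq70 call was lost without replicate 3 (log2 -1.82). It was also lost in NuGEN without replicate 1 or 2, and in SMARTseq0.25 without any 1 replicate and with the mouse as a block (log2 -2.12, adjusted p = 0.0762). Within each of the 6 count protocols the 3 Il17ra values of the IP lay above those of the input. Of the 6 ligands only Il17d was tested, in SMARTseq0.25, where edgeR did not call it (log2 0.80).

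Il16, a chemoattractant of CD4+ cells that stands outside these families, had 1.69, 4.04 and 1.64 CPM in the TruSeq70 inputs and 32.6, 31.4 and 50.004 in the IPs (log2 3.94 ± 0.44, edgeR, adjusted p = 0.000169), and was higher in 5 protocols. Its exons share 1202 bases with Stard5 on the opposite strand. Il34, the second ligand of the Csf1 receptor, was lower in SMARTseq4 (log2 -1.92) and TruSeq4 (log2 -1.18), in the latter not without any 1 replicate and not with the mouse as a block (log2 -1.18, adjusted p = 0.0625). The enzyme gene Il4i1 had RPKM of 7.63 to 10.5 in the TruSeq70 inputs but 0 exon counts in all 3, and 3423 of its exon bases are shared with Tbc1d17 on the opposite strand. Il31ra likewise had RPKM of 434 and 570 in SMARTer replicate 2 beside 0 exon counts, which sets the summed RPKM of that mouse apart. Neither was called in any protocol that tested it, and no level is read from these RPKM.

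**Figure D4:**
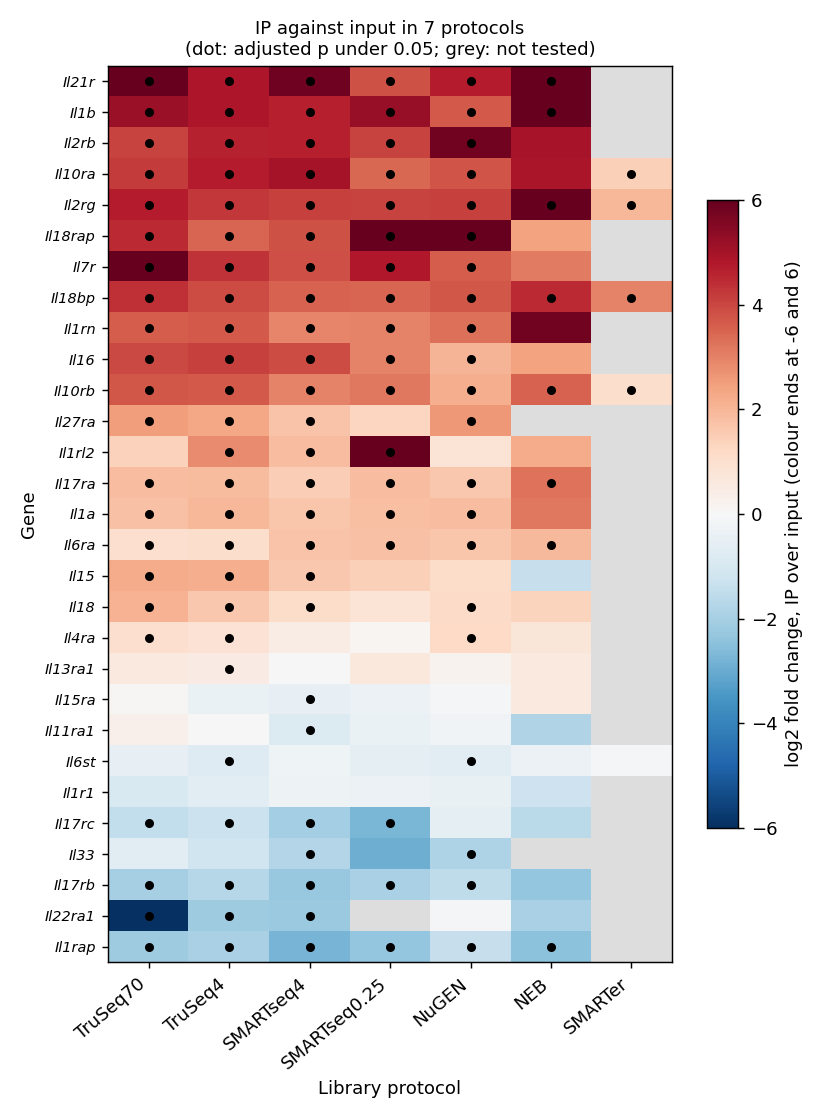
Colour gives the log2 fold change of IP over input for the 29 members tested in at least 5 protocols (rows, by their median over the 6 count protocols) in 7 protocols (columns), with a dot at an adjusted p under 0.05 and grey where not tested. Il21r to Il6ra are red in each tested column, Il1rap and Il17rb are blue in each tested column, and Il1r1 has no dot.

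**Figure D5:**
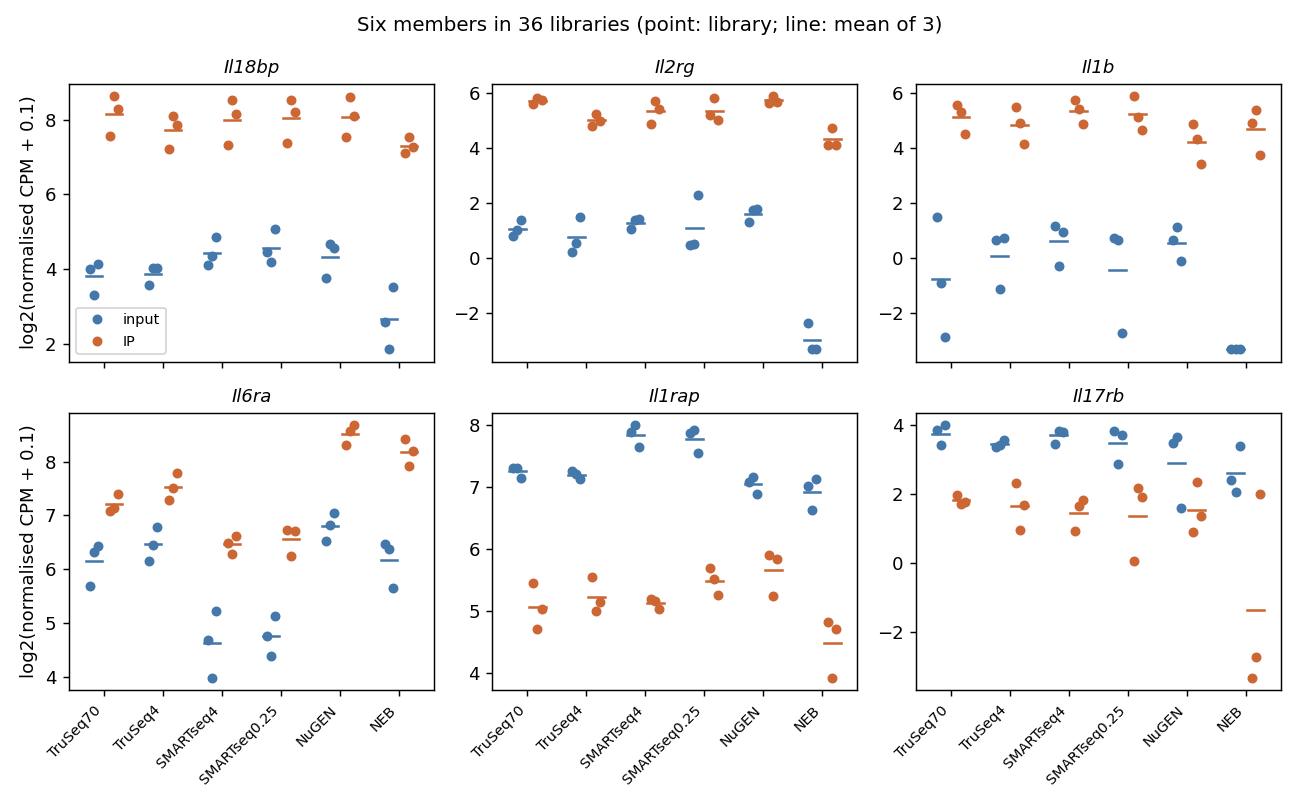
Normalised CPM of 6 members, as log2(CPM + 0.1) on the y axis, in 36 libraries by protocol (x axis), with blue points for input, orange for IP and a line at the mean of 3. Il18bp, Il2rg, Il1b and Il6ra lie higher in each IP group, Il1rap lies lower, Il17rb lies lower with overlap in NuGEN, and the 3 NEB inputs of Il1b sit at 0 CPM.

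The size of the IP change was then set against that in TruSeq70, to see whether a call in one protocol and not in another marks a difference. Each of 5 protocols was tested with 51 members in a joint edgeR fit of 36 libraries. That fit took a common spread per gene over all protocols and had no term for the mouse. Its SE may therefore not match the spread within NEB, and it counts libraries of the same mice as independent. In NEB 2 of 51 members differed (3.92%), a share no higher than that of all genes (4.21%). Il2rg changed by 4.51 ± 0.85 more on the log2 scale in NEB than in TruSeq70 (edgeR, adjusted p = 0.00192) and the fit gave 7.20 ± 1.86 more for Il1b (edgeR, adjusted p = 0.0233). The value for Il1b depends on the prior count of the fit, since its NEB inputs were all at 0, and is no measured size. With the mouse as a block 3 members differed between both protocols. Both genes had next to no input counts in NEB: Il1b had 0, 0 and 0 counts in input and 542, 1620 and 322 in IP, at least 737-fold, and Il2rg had 2, 0 and 0 counts against 311, 1003 and 411, a pooled ratio of 768 with an exact 95% counting interval of 212 to 6346. For NuGEN, SMARTseq0.25, SMARTseq4 and TruSeq4, 0 members differed from TruSeq70 in the edgeR test (background 0.135%, 0.683%, 0.21% and 0%), with 7, 10, 3 and 2 members at an unadjusted p under 0.05. Without replicate 2 the count in NEB was 0, and without replicate 1 or 3 it was 5.

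Genes that act with the members were taken from lists. Their counts in TruSeq70 stand against 18.1% higher and 16.7% lower among all genes tested there. Listed genes with inputs near 0 have the same limit of the filter as the members. Of 18 shared or partner chains and related ligands without an Il symbol, 11 were tested in TruSeq70, 7 were higher and 1 was lower, with a median log2 change of 3.60 (all genes -0.03). Csf2rb, the common beta chain, was higher in all 7 protocols, with 5.64, 6.33 and 6.91 CPM in the TruSeq70 inputs and 110.2, 132 and 128 in the IPs. Csf2ra, its partner for GM-CSF, and Csf1r, the receptor that also binds IL-34, were higher in all 7 protocols too. Ebi3, the partner of IL-27, was higher in 5 protocols. Lifr, a gp130 partner, was lower in 4, with 228, 198 and 127 CPM in the TruSeq70 inputs against 126, 71.2 and 86.4. Of 8 genes that process IL-1 and IL-18, all were tested in TruSeq70 and 6 were higher, 0 lower by edgeR, with a median log2 change of 2.49. Pycard, the inflammasome adaptor, had 0.551, 0.0979 and 1.03 CPM in input and 55.7, 31.1 and 28.1 in IP. Casp1, which cleaves pro-IL-1 and pro-IL-18, and Nlrp3, a sensor upstream of it, rose by 4.07 ± 0.58 and 3.54 ± 0.53 on the log2 scale (edgeR, adjusted p = 0.000671 and 0.000839).

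The signalling list held receptor-associated kinases, transcription factors and adaptors. Of 24 genes, 24 were tested in TruSeq70, 8 were higher and 4 lower, with a median log2 change of 0.46. Among all genes there, 18.1% were higher and 16.7% lower. Stat4, which serves IL-12, was at 0.0424, 0 and 0 CPM in input and 3.61, 0.777 and 2.90 in IP, and was higher in 5 protocols. Sigirr, an inhibitory relative of the IL-1 receptors, was lower in 5 protocols, from 47.2, 43.4 and 43.5 CPM to 16.6, 9.91 and 10.8 in TruSeq70. Stat3, the main transducer of IL-6 in hepatocytes, was called in 0 of 6 protocols by edgeR, with a log2 change of 0.03 in TruSeq70. Of 18 acute phase genes of hepatocytes, the targets of IL-6 and IL-1 signalling, 15 were lower and 0 higher in TruSeq70 (edgeR), with a median log2 change of -2.20. Fgg, a fibrinogen chain, fell from 2724, 2674 and 2821 CPM to 375, 359.7 and 388.

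Markers of several cell types moved with these results. Their counts stand against 18.1% higher and 16.7% lower among all genes tested in TruSeq70. Markers with inputs near 0, such as Cd3d and S100a8, could pass the filter only through the IP. In TruSeq70 all 11 Kupffer cell markers were higher, with sums of 541 to 601 CPM in input and 18323 to 22906 in IP. All 8 T and NK cell markers (2.84 to 4.56 CPM against 153 to 204) and all 5 B cell markers (2.94 to 3.81 against 132 to 167) were also higher, as were 4 of 8 granulocyte markers, 6 of them tested (2.03 to 4.04 against 77.9 to 188) and 3 of 4 erythroid markers (930.2 to 1520 against 57680 to 124091). Of 10 endothelial markers 1 was higher and 4 lower (357 to 382 CPM against 442 to 576), and all 10 hepatocyte markers were lower (172693 to 187970 CPM against 24565 to 30369). Stellate cell markers gave 5 lower of 6 and cholangiocyte markers 2 lower of 5. Of 4 basophil and mast cell markers, 0 were tested, all had 0 counts in the inputs, and Fcer1a had 0 counts in the IPs as well. The granulocyte markers Mpo and Ly6g were at 0 in the TruSeq70 inputs. The part of any of these cell types in the member results was not tested. Gfi1, whose promoter drives the Cre, had 0 CPM in the TruSeq70 inputs and 0.902, 0.428 and 0 CPM in the IPs, and was called higher in 1 of the 2 protocols that tested it. These values are near the floor. The study also measured Gfi1 by real-time RT-PCR before sequencing and reported it enriched in the IP. Rpl22, the tagged gene, was called in 0 of 7 protocols (edgeR and limma), and its exon counts do not tell tagged from untagged transcripts.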

How the data were processed

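Paired-end RNA-seq libraries of mouse liver were used, 3 per group in 14 groups. The authors deposited, for each library, exon counts per Ensembl gene and RPKM per gene, made from TopHat alignments to GRCm38 per the labels. In the 36 libraries of the 6 count protocols, the length implied by counts and deposited RPKM followed the whole gene span, introns included (r 0.912 to 0.948 across protein-coding genes of over 200 counts), more than exon length (r 0.616 to 0.689). In SMARTer, with 30 to 153 such genes, r was 0.52 to 0.591 and 0.444 to 0.628, which leaves the length behind its RPKM unsettled. So levels between genes were computed from exon counts per kilobase of merged exon (GENCODE M21). This choice was made after seeing the data and replaces the deposited RPKM fixed at the start. Each protocol was fitted with edgeR 4.0.16 in R 4.3.3 (quasi-likelihood test, TMM, filterByExpr, Benjamini-Hochberg over all genes, adjusted p under 0.05), SMARTer with limma 3.58.1 on log2(RPKM + 1), genes of RPKM 1 in at least 3 libraries. Fold changes of SMARTer are on that scale and understate low genes. Printed CPM use one set of TMM factors over 36 libraries. Scripts were tested on simulated data. DESeq2 1.42.0 served as an alternative, as did other scalings, filters, the fractions as labelled and leaving out each replicate.

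The same replicate number was taken as the same mouse, since RNA of each animal was divided between kits per the study. Deviations from the group means correlated between the input and IP of a mouse at r of 0.0223 (NEB) to 0.446 (SMARTer). Between different mice, r was at most 0.00316 in NEB and -0.0897 in SMARTer, so NEB says little on the pairing. The main fits have no mouse block. The replicates are separate animals. Per the study's text, the data were not analysed by strand, so overlapping genes are uncertain. Beside those named above, called members shared exon bases with opposite-strand genes: 571 in Il4ra, 552 in Il1rap, 242 in Il6ra and 222 in Il1a. Il17rb shared 141 and Il27 103, and other called members shared fewer. A count of 0 allows up to 3 counts, which is 0.0660 to 0.931 CPM in the count protocols. Intervals and floors cover counting error only.

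The members, the gene lists and the exchange of replicate 3 were chosen with earlier results of these data known. Members were named by rule: those tested in at least 5 protocols, the 3 highest by RPKM in each TruSeq70 fraction, and others called in at least 1 protocol. Full values were given for those called in at least 4 protocols in one direction. Values of members tested in fewer than 5 protocols (Il1r2, Il18r1, Il3ra, Il12rb1, Il12b, Il10, Il4, Il34, Il12rb2, Il17d) and of Il6 were added after they were seen.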

Additional observations from a re-analysis of the deposited data

Results flagged for a closer look

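In the test of the difference itself, the log2 change of IP over input was larger in NEB than in TruSeq70 for Il1b (fitted difference 7.20) and Il2rg (4.51) (edgeR, adjusted p = 0.0233 and 0.00192). These are 3.92% of the members tested, against 4.21% of all genes. The Il1b value depends on the prior count of the fit: against 3 counts over the NEB inputs, Il1b was at least 737-fold higher in the IP, beside a fitted 35.7-fold in TruSeq70. In both genes the 3 IP libraries were higher than the 3 inputs in each protocol, so the flag is one of size and not of direction. The NEB inputs held 0 counts of Il1b and 2 counts of Il2rg, and the calls of both genes within NEB were lost when any 1 replicate was left out.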

How the results depend on the processing

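There were 150 member calls (gene and protocol). Of the 70 in the 4 protocols with exchanged fractions, 67 were lost and 3 turned sign with fractions as labelled, where each of the 4 protocols concerned gave 0 calls: Il7r (log2 -0.043) and Il18 (-0.032) in NuGEN and Il18r1 (-0.064) in TruSeq4. With limma on RPKM, Il6st (log2 0.43, adjusted p = 0.0232, a call in the opposite direction) and Il1rap (0.065) turned sign in NuGEN, and counts of called members fell to 11 in SMARTseq0.25, 11 in SMARTseq4, 12 in TruSeq4 and 13 in TruSeq70; the RPKM filter leaves fewer members to test. DESeq2 gave 15 calls in NEB in place of 8, and SMARTer gave 0 with no filter but RPKM above 0. Leaving out 1 mouse gave 1 to 6 calls in NEB, 19 to 21 in NuGEN, 2 to 5 in SMARTer, 17 to 18 in SMARTseq0.25, 32 to 33 in SMARTseq4, 29 to 34 in TruSeq4 and 14 to 24 in TruSeq70, with 16, 33 and 32 calls lost without mouse 1, 2 and 3. The members that differed between NEB and TruSeq70 numbered 0 to 5 without 1 mouse and 4 as labelled; for NuGEN, SMARTseq0.25, SMARTseq4 and TruSeq4 they were 0 to 0. The cause of these shifts was not tested.

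With the mouse as replicate block, calls numbered 9 in NEB, 23 in NuGEN, 4 in SMARTer, 18 in SMARTseq0.25, 36 in SMARTseq4, 35 in TruSeq4, 24 in TruSeq70 and 3 for the difference of NEB from TruSeq70. The block ended 8 of the 150 calls: Il2rg in NEB, Il33 in NuGEN, Il17rb and Il1a in SMARTseq0.25, Il22ra1 in SMARTseq4, Il34 in TruSeq4, and Il1r2 and Il3ra in TruSeq70.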
